A study of Mus musculus with 6 samples.

Results

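The homeodomain-interacting protein kinases (HIPK) and the dual-specificity tyrosine-regulated kinases (DYRK) were examined in mouse embryonic fibroblasts (MEFs) that were wild-type or heterozygous for Lztr1. All 9 genes of both families, Hipk1 to Hipk4, Dyrk1a, Dyrk1b, Dyrk2, Dyrk3 and Dyrk4, were found among the 51826 genes measured. They were taken by name, because Hipk2 stood nearest to the threshold after Lztr1 in an earlier comparison of the genotypes in these same libraries. That comparison gave an adjusted p of 0.00457 for Lztr1, 0.0742 for Hipk2 and 0.305 for the next gene, by the quasi-likelihood test of edgeR with Benjamini-Hochberg adjustment. The genotype values of Hipk2 are therefore a description here, and nothing is supported with them. MEFs are primary connective-tissue cells grown from embryos. Messenger RNA was sequenced from 3 wild-type cultures (Lztr1 +/+, numbered 10, 12 and 16) and 3 heterozygous cultures (Lztr1 +/-, numbered 11, 15 and 18), all on a C57BL/6 background and with the same passage range, and without any treatment named in the labels. The LZTR1 protein brings substrates to a CUL3 ubiquitin ligase. The labels state neither the structure of the mutant allele nor the embryo of origin of each culture, so p-values reflect spread among the cultures that may in part be technical.

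Library totals ran from 11025286 to 21885101 expected counts. Lztr1 stood at 83.2 to 94.1 CPM (counts scaled to library size and composition) in wild-type and 43.8 to 45.9 CPM in heterozygous cultures, in keeping with the label of every culture. All 13 fibroblast markers reached 1 TPM (a level also scaled for gene length), with a summed level of 10900 to 13400 TPM. Markers of other cell types were also present, with summed levels of 480 to 769 TPM for skeletal muscle and 128 to 509 TPM for erythroid cells. Sums were 245 to 411 TPM for neural and Schwann cells and 223 to 398 TPM for macrophages and blood. They were 132 to 286 TPM for epithelium and 26.3 to 34.7 TPM for endothelium. In such bulk samples, fewer cells of a type and less RNA per cell cannot be told apart. Wild-type culture 16 stood out from cultures 10 and 12 in earlier results, and leaving it out raised the share of genes called from 0.00683% to 5.93%. Differences without it are therefore given beside each member. Differences within cultures numbered 10 to 12 and 15 to 18 are given in numbers for Hipk2, Dyrk1b and Dyrk3, and in a figure for every tested member. Differences within the earlier and the later registered cultures (11 and 16) are given for Hipk2, Dyrk1b, Dyrk2 and Dyrk3. The labels do not name these sets of cultures as batches. By Xist and Y-linked transcripts, wild-type cultures 10 and 16 and heterozygous culture 11 were female and the other cultures male.

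HIPK and DYRK kinases are neighbouring branches of the CMGC group of protein kinases, which also holds the cyclin-dependent and MAP kinases. They phosphorylate serine and threonine in their substrates, but their own activation loop carries a tyrosine that the kinase phosphorylates on itself. HIPK1, HIPK2 and HIPK3 are mainly nuclear and act on transcription factors and corepressors, with HIPK2 best known for phosphorylating p53 after DNA damage. DYRK1A and DYRK1B phosphorylate NFAT factors, cyclin D and the LIN52 subunit of the DREAM repressor complex and are linked to quiescence. DYRK2 acts on p53 and on the proteasome, and DYRK3 controls the dissolution of cytoplasmic condensates. HIPK4 and DYRK4 are best known from testis. In fibroblasts these kinases link growth and stress signals to transcription and to exit from the cell cycle.

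The coding sequence of the activation loop shows how alike the members are, and therefore how far reads could be confused between them. The sequences run 5′ to 3′ on the coding strand, from GENCODE transcripts of mm10, and the codon of the conserved tyrosine is in capitals.
Hipk1: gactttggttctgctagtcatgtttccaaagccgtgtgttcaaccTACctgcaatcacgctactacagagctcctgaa
Hipk2: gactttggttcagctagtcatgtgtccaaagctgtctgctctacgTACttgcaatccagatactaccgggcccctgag
Hipk3: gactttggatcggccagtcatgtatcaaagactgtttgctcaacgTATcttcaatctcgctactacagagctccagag
Hipk4: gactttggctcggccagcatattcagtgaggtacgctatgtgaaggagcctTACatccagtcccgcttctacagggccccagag
Dyrk1a: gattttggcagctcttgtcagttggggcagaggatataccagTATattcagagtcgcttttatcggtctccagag
Dyrk1b: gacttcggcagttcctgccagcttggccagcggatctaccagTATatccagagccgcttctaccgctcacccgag
Dyrk2: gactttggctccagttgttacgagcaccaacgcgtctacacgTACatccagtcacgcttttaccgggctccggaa
Dyrk3: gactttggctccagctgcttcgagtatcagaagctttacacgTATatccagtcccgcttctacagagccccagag
Dyrk4: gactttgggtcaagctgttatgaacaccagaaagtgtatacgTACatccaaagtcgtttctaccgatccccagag
The Hipk2 segment lies in exons 2 and 3 of transcript Hipk2-206, within chr6:38747988-38818297 on the minus strand. Over the 78 bases of the segment Hipk1 and Hipk2 shared 80.8% of positions, Hipk1 and Hipk3 79.5%, and Hipk2 and Hipk3 75.6%. Hipk4 shared 43.6% with Hipk1, less than the 56.0% that it shared with Dyrk1b over 75 bases. Among the DYRK genes, Dyrk1a and Dyrk1b shared 77.3%, and Dyrk2 and Dyrk3 74.7%. The longest identical run between any pair of members was 20 bases, between Hipk4 and Dyrk3, followed by 17 bases between Hipk1 and Hipk3. Segments of unequal length were compared from their 3′ ends.

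Despite this likeness, no transcript of one member shared a word of 50 bases with a transcript of another member on either strand, so identical stretches of that size could not mix their reads. Sharing with other genes was found for Hipk2, where 4.77% of 8871 words were also present in Ubn2 in the opposite orientation. Ubn2, which encodes a nuclear ubinuclein, stood at 36.5 ± 3.06 CPM (wild-type) and 37.2 ± 1.89 CPM (heterozygous) as mean and SD of 3 cultures, and its log2 difference was 0.03 (95% interval -0.16 to 0.22). Dyrk2 shared 4.5% of its words with an uncharacterised transcript on the opposite strand. That transcript, 4932442E05Rik, held 4.19 to 13.6 counts in a library. Hipk1 shared 5.33% of its words, nearly all with the antisense gene Gm15886, which had 0 counts in every library. Whether the counting used strand was not stated, so the counts of Hipk2 and Dyrk2 are slightly uncertain.

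In wild-type cultures the members spanned a wide range of levels, with Dyrk1a highest and Dyrk4 not detected. Mean levels in wild-type cultures (SD, n = 3) were 25.8 ± 2.72 TPM for Dyrk1a and 22.8 ± 0.352 TPM for Hipk3. They were 19.3 ± 0.449 TPM for Dyrk2 and 18.1 ± 1.99 TPM for Hipk1. The lower members were Hipk2 at 10.4 ± 0.287 TPM, Dyrk1b at 8.93 ± 1.76 TPM, Dyrk3 at 4.35 ± 0.522 TPM and Hipk4 at 1.66 ± 0.230 TPM. The same order held for the means in heterozygous cultures. Neighbours in the order were not always apart. Dyrk1a was above Hipk3 in 6 of 6 libraries although the wild-type ranges overlapped across libraries. Dyrk2 and Hipk1 did not differ beyond their spread, with Dyrk2 higher in 4 of 6 libraries. Hipk2 and Dyrk1b also overlapped in wild-type cultures, where Hipk2 was higher in 2 of 3, but in heterozygous cultures every Hipk2 value was above every Dyrk1b value. Hipk3, Hipk1, Dyrk1b and Dyrk3 were each above the next member in 6 of 6 libraries with no overlap within either genotype. By the mean over all 6 libraries of both genotypes, Dyrk1a lay at percentile 64.1 of the 14652 tested genes. Hipk2 lay at percentile 46.0 and Hipk4 at percentile 10.4.

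**Figure D1:**
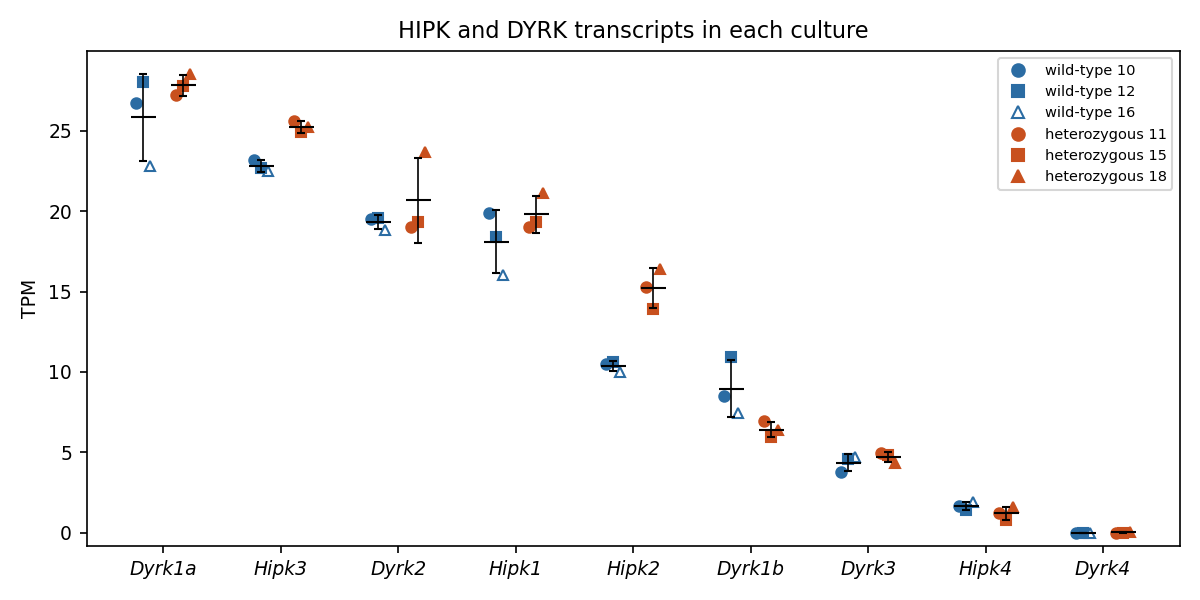
Level of each HIPK and DYRK gene in TPM (vertical axis, linear) in 6 cultures, in order of the wild-type mean, with bars for the mean and SD of each genotype (n = 3). Dyrk1a reached 22.8 to 28.5 TPM, Hipk2 stood at 10 to 10.6 TPM in wild-type and 13.9 to 16.4 TPM in heterozygous cultures, and Dyrk4 stayed at or below 0.0800 TPM.

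Hipk2, the gene on which the family was chosen, was higher in every heterozygous culture than in any wild-type culture. The gene (ENSMUSG00000061436.15) is protein-coding and lies on the minus strand at chr6:38694390-38876165 in mm10. It measured 35, 35.6 and 33.7 CPM in wild-type cultures 10, 12 and 16. The heterozygous cultures 11, 15 and 18 stood at 54.3, 52.8 and 59.8 CPM. The wild-type values lay close together, and the lowest heterozygous value was well clear of the highest of them. The mean was 1.60-fold higher on the CPM scale and 1.47-fold higher on the TPM scale, which also corrects for transcript length. The log2 difference was 0.68 (95% interval 0.52 to 0.84), and 0.66 without wild-type culture 16. With culture 16 kept, it was 0.62 within cultures 10 to 12 and 0.74 within cultures 15 to 18, and 0.67 and 0.69 in the earlier and the later registered cultures. With a term for Y-linked expression the log2 difference was 0.66. Its share of the summed TPM of Hipk1, Hipk2 and Hipk3, the homologous HIPK genes, was 20.2% ± 0.602 in wild-type and 25.2% ± 1.11 in heterozygous cultures (SD, n = 3 each).

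Hipk2 has 2 start regions in RefSeq, 38879 bases apart, and both are shown. Each covers 300 bases around the start on the minus strand (RefSeq, GRCm38.p6), with CG dinucleotides in capitals.
Hipk2 upstream start, chr6:38876141-38876440: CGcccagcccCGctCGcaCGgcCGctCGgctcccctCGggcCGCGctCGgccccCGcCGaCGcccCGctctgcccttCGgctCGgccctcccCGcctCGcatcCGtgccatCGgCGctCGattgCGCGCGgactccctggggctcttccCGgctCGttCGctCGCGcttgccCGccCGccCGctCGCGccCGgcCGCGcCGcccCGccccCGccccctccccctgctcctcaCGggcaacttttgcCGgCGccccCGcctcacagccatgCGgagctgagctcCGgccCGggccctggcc
Hipk2 internal start, chr6:38837262-38837561: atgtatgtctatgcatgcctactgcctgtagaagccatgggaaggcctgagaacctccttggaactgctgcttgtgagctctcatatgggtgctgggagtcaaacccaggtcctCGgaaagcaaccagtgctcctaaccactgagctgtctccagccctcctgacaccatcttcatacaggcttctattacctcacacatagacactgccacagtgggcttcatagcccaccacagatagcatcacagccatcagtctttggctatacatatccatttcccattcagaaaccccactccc
The upstream region holds 48 CG dinucleotides, and 1.22% of 32851 start regions of all genes hold as many or more. The internal region holds 1, a number that 94.6% of them reach. The deposited tables give levels for whole genes, so which start was used was not measured.

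The deposited gene length bears on the mixture of Hipk2 transcripts, since RSEM averages the lengths of a gene's transcripts by their estimated abundance. Of the 7 Hipk2 transcripts, Hipk2-206 is 7684 bases long and the next longest 3972 bases. The gene length was 5720, 5891 and 5445 bases in wild-type cultures 10, 12 and 16. It was 5967, 6212 and 6158 bases in heterozygous cultures 11, 15 and 18. Every heterozygous culture therefore had a longer average Hipk2 transcript than any wild-type culture. Among 11770 tested genes with several transcripts, 4.49% had groups that did not overlap in this direction and 10.9% in either direction. The effective length, which allows for fragment size, averaged 5478 ± 224 bases in wild-type and 5907 ± 129 bases in heterozygous cultures (SD, n = 3 each), and did not overlap, as in 6.53% of these genes in this direction and 12% in either. These lengths come from the same contrast as the choice of the family and are given with no test.

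These lengths also bound the level of Hipk2-206 without knowledge of the other transcripts. Its share of Hipk2 molecules could lie between 39.7% and 74.5% over the wild-type cultures and between 53.7% and 79.1% over the heterozygous ones, and these ranges overlapped. In TPM it lay between 3.99 and 7.88 over the wild-type cultures and between 8.20 and 12.9 over the heterozygous cultures. These TPM ranges did not overlap, but they scale with the level of Hipk2, which was chosen on this contrast, and are a description only. The remaining transcripts together lay between 2.70 and 6.05 TPM in wild-type and 2.92 and 7.06 TPM in heterozygous cultures, and those ranges did overlap. Which transcripts carry the Hipk2 difference was not tested. RSEM's split of reads between transcripts carries its own error, which the deposited tables do not give.

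**Figure D2:**
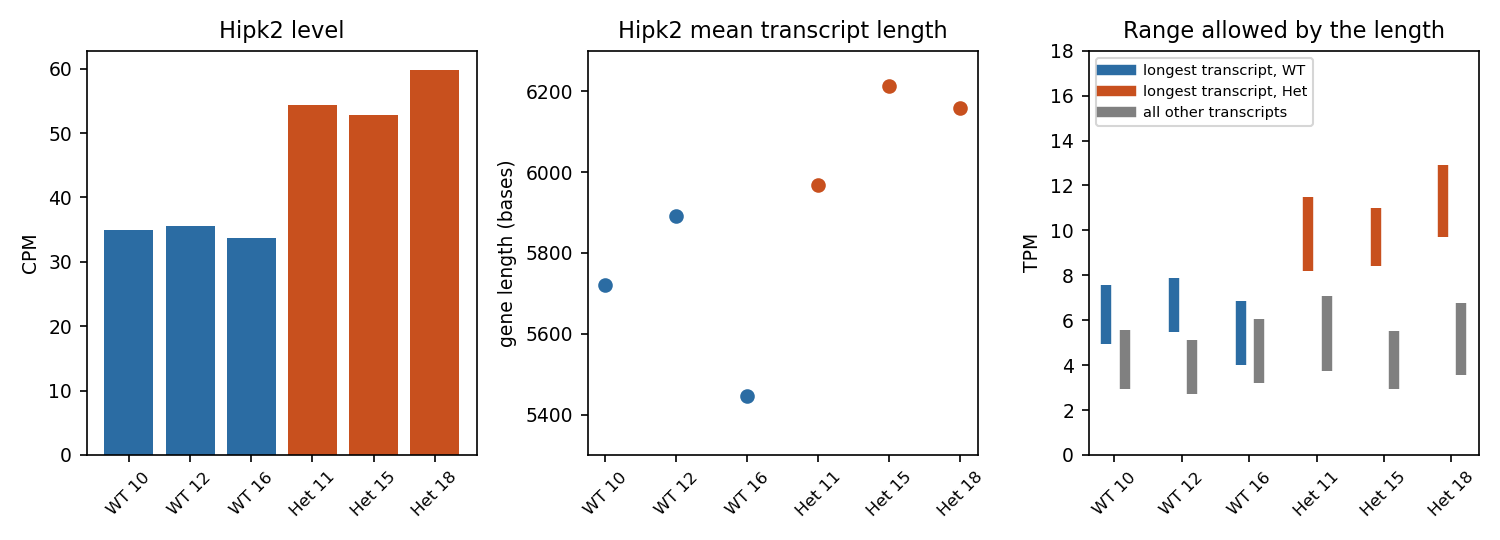
Hipk2 in 6 cultures as CPM (left), gene length in bases (middle, axis not from 0) and the range of TPM that the length allows for the longest transcript and for all others together (right). Heterozygous cultures were higher in CPM and in length. The ranges of the longest transcript reached 7.88 TPM in wild-type and began at 8.20 TPM in heterozygous cultures. These ranges scale with the level of Hipk2, which was chosen on this contrast.

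Hipk1 and Hipk3, the closest homologues of Hipk2, had smaller differences between the genotypes. Hipk1, a nuclear kinase with overlapping developmental roles, measured 81.7, 78.8 and 75.3 CPM (wild-type cultures 10, 12 and 16) and 81.2, 81.0 and 87.7 CPM in heterozygous cultures 11, 15 and 18. The groups overlapped, and the log2 difference was 0.08 (SE 0.059, 95% interval -0.05 to 0.22), at adjusted p = 0.596 by edgeR. It was 0.05 without wild-type culture 16 and 0.05 without heterozygous culture 18. Hipk3, a kinase that also binds homeodomain factors, measured 101, 97.3 and 104 CPM (wild-type) and 113, 109 and 107 CPM (heterozygous), in the same order. The groups of Hipk3 did not overlap, but the log2 difference was only 0.12 (SE 0.053, 95% interval 0.00 to 0.24) and did not pass (adjusted p = 0.403 by edgeR). Without wild-type culture 16 it was 0.15, at an adjusted p of 0.112 by edgeR. Hipk3 transcripts were on average shorter in heterozygous cultures, at 7029 ± 112 bases of effective length against 7218 ± 23.5 bases in wild-type (SD, n = 3 each). This is opposite to Hipk2. Its gene length did not overlap between the groups, as in 6.37% of tested genes with several transcripts in this direction. The longest transcript, Hipk3-201, made up at least 98.6% of molecules in each wild-type culture and at least 97.2%, 91.8% and 91.1% in heterozygous cultures 11, 15 and 18. The ratio of Hipk2 to Hipk3 in TPM was 0.454 ± 0.0107 in wild-type and 0.604 ± 0.0464 in heterozygous cultures, while that of Hipk3 to Hipk1 was 1.27 ± 0.127 and 1.28 ± 0.0772.

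Hipk4, which lacks the homeodomain-interacting region of its relatives and is best known from spermatids, was close to the limit of measurement. It held 33, 21 and 32 counts in wild-type cultures 10, 12 and 16, and 40, 18 and 27 counts in heterozygous cultures 11, 15 and 18. These correspond to 1.86 to 2.93 CPM (wild-type) and 1.27 to 2.45 CPM (heterozygous). The groups overlapped, and the log2 difference of -0.37 had a 95% interval from -1.08 to 0.34, or 0.474-fold to 1.27-fold (adjusted p = 0.649 by edgeR). It moved to -0.17 without heterozygous culture 15, -0.19 without wild-type culture 16 and -0.57 without heterozygous culture 18. Testis germ cell markers summed to 0.230 to 0.630 TPM, with none of 8 reaching 1 TPM and Sycp3 and Tnp1 listed at 0.

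Dyrk1a lies on chromosome 16, as does Lztr1, 77.0 megabases away at chr16:94570010-94695517. It measured 68.7, 66.0 and 65.2 CPM (wild-type cultures 10, 12 and 16) and 68.8, 72.4 and 72.0 CPM in heterozygous cultures 11, 15 and 18. The groups were apart by a small margin in CPM and overlapped in TPM. The log2 difference was 0.09 (SE 0.054, 95% interval -0.03 to 0.22), at an adjusted p of 0.517 by edgeR, and the upper end of the interval corresponds to 1.16-fold. Without wild-type culture 16 the difference was 0.08.

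Dyrk1b, the close homologue of Dyrk1a that is linked to quiescence and is abundant in skeletal muscle, had the opposite direction. It lies on chromosome 7 at chr7:28179469-28187294. It measured 11.1, 13.5 and 10.6 CPM (wild-type cultures 10, 12 and 16) and 9.45, 8.07 and 8.88 CPM in heterozygous cultures 11, 15 and 18. Every heterozygous culture was below every wild-type culture, in CPM and in TPM. The mean stood at 74.8% of wild-type, a log2 difference of -0.41 (SE 0.139, 95% interval -0.73 to -0.10). It did not pass (adjusted p = 0.335 by edgeR). Without wild-type culture 16 it was -0.48, at an adjusted p of 0.1 by edgeR. With culture 16 kept, the value within cultures 10 to 12 was -0.37 and within cultures 15 to 18 -0.32, and -0.53 and -0.17 in the earlier and the later registered cultures. The ratio of Dyrk1b to Dyrk1a in TPM was 0.318, 0.388 and 0.326 in wild-type and 0.255, 0.214 and 0.224 in heterozygous cultures. Skeletal muscle markers, of which 11 of 12 reached 1 TPM, summed to 490 to 769 TPM in wild-type and 480 to 670 TPM in heterozygous cultures. Their part in the Dyrk1b difference was not tested.

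Dyrk2, a kinase of p53 and of a proteasome subunit, measured 69.5, 68.9 and 71.3 CPM (wild-type cultures 10, 12 and 16) and 69.3, 72.1 and 85.9 CPM in heterozygous cultures 11, 15 and 18. Only heterozygous culture 18 stood out, and the groups overlapped. The log2 difference was 0.11 (SE 0.084, adjusted p = 0.605 by edgeR) and 0.02 without culture 18. It was 0.13 without wild-type culture 16. With all cultures kept, it was 0.19 in the earlier and -0.04 in the later registered cultures. Dyrk3, known from erythroid cells and from the control of stress granules, measured 5.08, 5.57 and 8.97 CPM (wild-type) and 7.37, 8.99 and 7.16 CPM (heterozygous). Wild-type culture 16 was at the level of heterozygous culture 15. The log2 difference was 0.27 (95% interval -0.26 to 0.80, adjusted p = 0.654 by edgeR), 0.46 within cultures 10 to 12 and -0.16 within cultures 15 to 18. It was 0.58 in the earlier and -0.28 in the later registered cultures. Without wild-type culture 16 it was 0.56 and still did not pass, at an adjusted p of 0.102 by edgeR. Without any 1 of the other cultures it ran from 0.12 (without wild-type culture 10) to 0.33. Erythroid markers, of which 9 of 12 reached 1 TPM, summed to 161, 128 and 443 TPM in wild-type and 255, 443 and 509 TPM in heterozygous cultures. Their defining regulators were low, with Gata1 between 0.180 and 0.660 TPM and Klf1 between 0.170 and 0.790 TPM. Their part in the level of Dyrk3 was not tested. Dyrk3 has 2 transcripts, of 3164 and 663 bases, so its gene length gives their shares. The short one made up 29.2%, 35.6% and 0% in wild-type and 21.9%, 0% and 10.2% in heterozygous cultures, on 63 to 160 counts, and was therefore more frequent in cultures 10, 12 and 11 than in 15, 16 and 18. Dyrk4 had 0 counts in 5 libraries and 1 count in heterozygous culture 18. A count of 0 allows up to 3 counts, or 0.137 to 0.272 CPM across the libraries, for counting error alone.

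**Figure D3:**
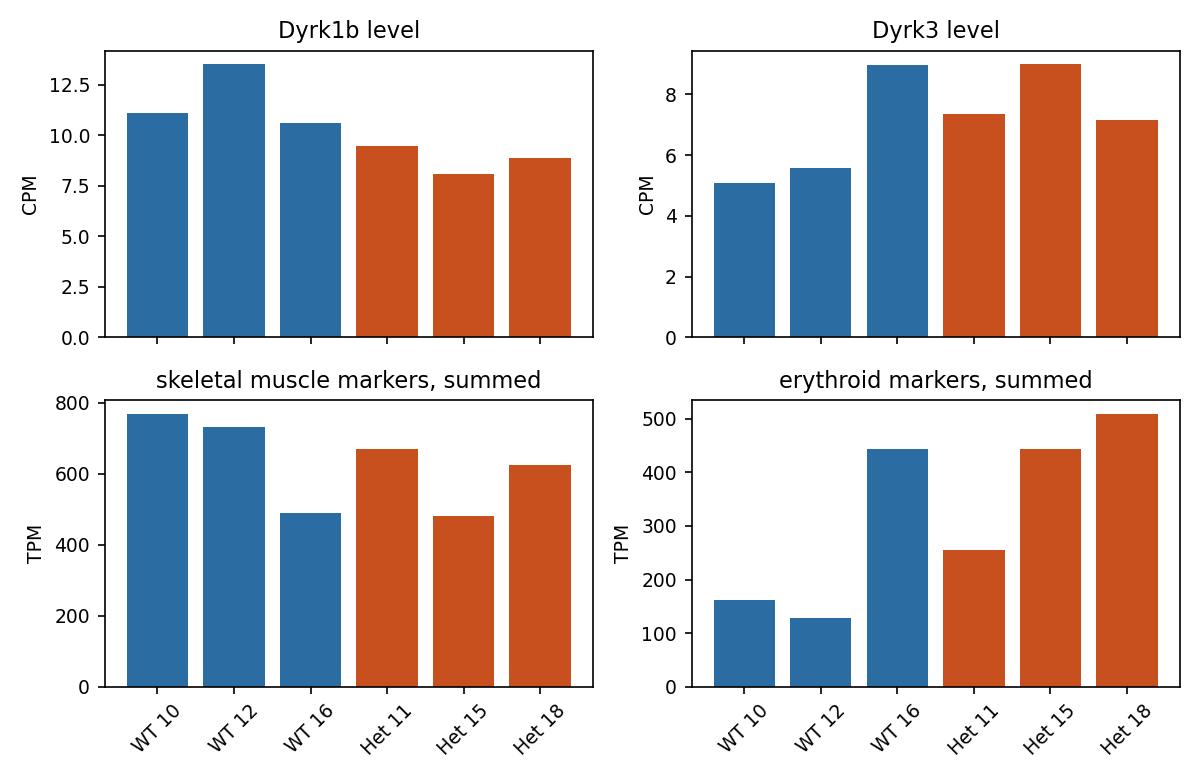
Dyrk1b and Dyrk3 in CPM (top) above the summed TPM of skeletal muscle and erythroid markers (bottom) in 6 cultures, with wild-type in blue and heterozygous in orange. Dyrk1b was lower in every heterozygous culture, while Dyrk3 ran from 5.08 to 8.97 CPM in wild-type and from 7.16 to 8.99 CPM in heterozygous cultures.

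Of the 9 members, 8 passed the filter on low counts and Dyrk4 did not. None of the 8 was called between the genotypes by edgeR, where 0.00683% of all tested genes were called. At an unadjusted p under 0.05 were 3 members, Hipk2, Hipk3 and Dyrk1b, against 12.2% of all tested genes. DESeq2 called 1 member, Hipk2, where 0.764% of genes were called, and gave no adjusted p for Hipk4, Dyrk1b and Dyrk3. The CPM groups did not overlap in 3 members that were higher in heterozygous cultures (Hipk2, Hipk3 and Dyrk1a) and in 1 that was lower (Dyrk1b), where 7.75% of all tested genes had such groups in the first direction, 9.97% in the second and 17.7% in either. By TPM, Hipk2 and Hipk3 were apart upwards and Dyrk1b downwards, beside 7.1%, 9.29% and 16.4% of all tested genes. The filter keeps members by their level, so these counts cover the tested members alone. Hipk2 was chosen on this contrast and adds nothing to them.

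**Figure D4:**
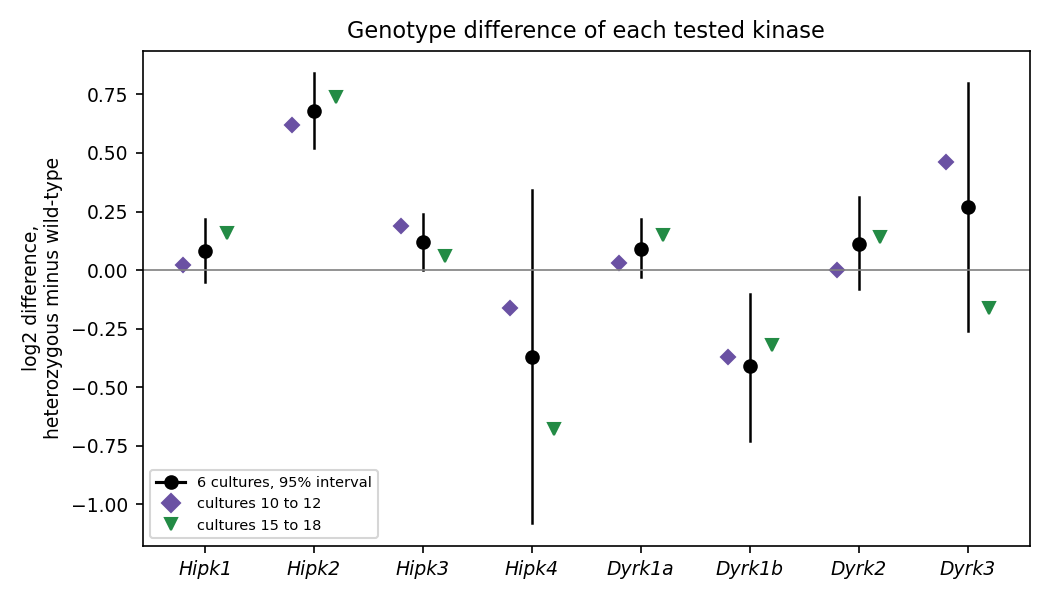
Log2 difference of heterozygous minus wild-type cultures for the 8 tested members (vertical axis), with the 95% interval of the edgeR fit over 6 cultures (black) and the difference within cultures 10 to 12 (diamonds) and 15 to 18 (triangles). Hipk2 lay at 0.68 and Dyrk1b at -0.41, and Dyrk3 differed in sign between the runs.

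Cultures 15 to 18 were also compared with cultures 10 to 12, a contrast that did not enter the choice of the family. With genotype in the model, edgeR called none of the 8 tested members, 0 reached an unadjusted p under 0.05, and DESeq2 also called 0, where 0.0478% of all tested genes were called by edgeR. The nearest was Dyrk3, higher in cultures 15 to 18 by 0.43 on the log2 scale (SE 0.19, adjusted p = 0.377). Dyrk1b differed by -0.18 (SE 0.13) and Dyrk2 by 0.12 (SE 0.080). The differences of Hipk1 and Dyrk1a were -0.02 (SE 0.062) and 0.01 (SE 0.056).

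The genes that act with these kinases held none that passed the edgeR test over all genes. Ubiquitin ligases that direct HIPK2 to the proteasome had 3 of 6 members higher and a median log2 difference of 0.00, beside 49.6% higher and a median of 0.00 over all genes tested. None was called by edgeR or DESeq2, which called 0.00683% and 0.764% of all tested genes. None had an unadjusted p under 0.05, beside 12.2% of all tested genes. Mdm2, the ligase of p53, measured 158 ± 49.1 CPM (wild-type) and 199 ± 3.68 CPM (heterozygous), and wild-type culture 16 alone reached 214 CPM. Siah1b, Siah1a and Siah2 differed by 0.15 (SE 0.11), -0.08 (SE 0.085) and -0.09 (SE 0.099).

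Partners and substrates of the HIPK kinases had 10 of 24 tested members higher and a median of -0.03. EdgeR called none and DESeq2 called Msx1 alone, beside 0.764% of all tested genes. An unadjusted p under 0.05 was reached by 4 of the 24, beside 12.2% of all tested genes. Msx1, a homeodomain repressor of limb and craniofacial development, stood at 65.4 ± 13.1 CPM (wild-type) and 42.1 ± 6.81 CPM (heterozygous), a log2 difference of -0.63 (SE 0.16, adjusted p = 0.313 by edgeR). The groups were barely apart, with wild-type culture 16 at 50.4 CPM and heterozygous culture 11 at 49.4 CPM. The WNT-pathway repressor Tcf7l1 differed by -0.34 (SE 0.097), the nuclear body scaffold Pml by 0.29 (SE 0.096) and the chromatin protein Hmga1 by 0.42 (SE 0.17). For Hmga1, wild-type culture 16 stood at 539 CPM, within the heterozygous range of 503 to 620 CPM.

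Partners and substrates of the DYRK kinases had 21 of 34 members higher and a median of 0.04. EdgeR called none and DESeq2 called 2, Nfatc4 and Dnm1, beside 0.764% of all tested genes. An unadjusted p under 0.05 was reached by 8, beside 12.2% of all tested genes. Nfatc4, a calcineurin-dependent factor that DYRK kinases drive out of the nucleus, measured 107, 103 and 94.3 CPM (wild-type cultures 10, 12 and 16) and 78.8, 70.1 and 66.8 CPM in heterozygous cultures 11, 15 and 18. All heterozygous values were lower, as in 9.97% of all tested genes, with a log2 difference of -0.50 (SE 0.079, adjusted p = 0.305 by edgeR). The endocytic GTPase Dnm1 differed by -0.46 (SE 0.097) and the forkhead factor Foxo1 by -0.31 (SE 0.12).

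The DREAM complex, a repressor of cell-cycle genes assembled after DYRK1A acts on LIN52, had 6 of 11 members higher and a median of 0.05. Over all tested genes 49.6% were higher. None was called by edgeR or DESeq2, which called 0.00683% and 0.764% of all tested genes. An unadjusted p under 0.05 was reached by 1 member, beside 12.2% of all tested genes. This was the pocket protein gene Rbl2, at 32.5 ± 3.07 CPM (wild-type) and 26.4 ± 1.48 CPM (heterozygous) (log2 difference -0.30, SE 0.091). Its heterozygous values were all lower, as in 9.97% of all tested genes. Lin54, Lin9 and Tfdp1 differed by 0.17 (SE 0.082), 0.15 (SE 0.11) and 0.09 (SE 0.068). Among 15 tested kinases of the same group, such as the splicing-factor kinases of the CLK and SRPK families, 6 were higher and the median was -0.01. None was called by edgeR or DESeq2 and 1 had an unadjusted p under 0.05, beside the same shares of all tested genes. This was Clk2, which differed by -0.22 (SE 0.061). Nlk, a kinase that works with HIPK2, differed by 0.19 (SE 0.10), Srpk2 by -0.10 (SE 0.056) and Ick by -0.13 (SE 0.088).

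Target genes of p53, a substrate of HIPK2 and DYRK2, had 15 of 18 members higher and a median of 0.14, beside 49.6% higher and a median of 0.00 over all tested genes, in a list already examined in these libraries and so no independent support. None was called by edgeR or DESeq2, beside 0.00683% and 0.764% of all tested genes. An unadjusted p under 0.05 was reached by 3, beside 12.2% of all tested genes. Eda2r, a receptor gene, differed by 0.30 (SE 0.092) and the cyclin-like Ccng1 by 0.31 (SE 0.11), and both had groups apart upwards. The apoptosis gene Bbc3 differed by -0.25 (SE 0.10), with groups apart downwards. Of the list, 3 members were apart upwards and 1 downwards, beside 7.75% and 9.97% of all tested genes. Zmat3, a zinc finger gene, differed by 0.14 (SE 0.074), in groups that overlapped. Ccng1 in wild-type culture 16 was at 605 CPM, above the 436 and 488 CPM of cultures 10 and 12 and just below the heterozygous range of 618 to 645 CPM.

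**Figure D5:**
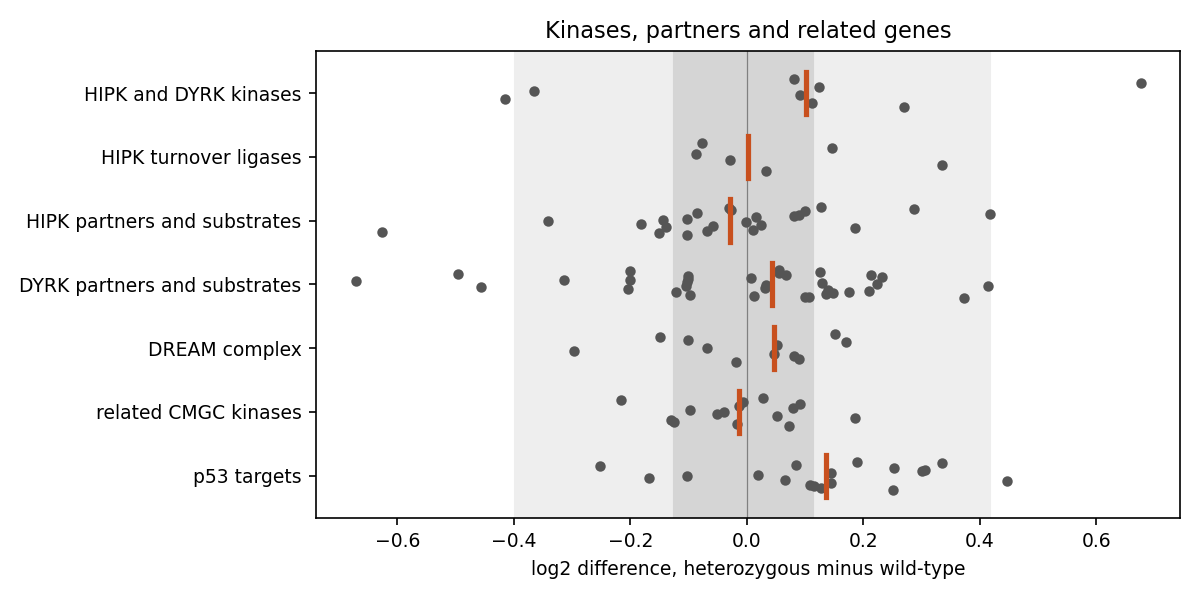
Log2 difference of heterozygous minus wild-type cultures (horizontal axis) for each tested gene of the families and of 6 related gene lists, with the median of each list in orange and the central 50% and 90% of all tested genes in grey. List medians ran from -0.03 to 0.14. Hipk2, chosen on this contrast, was the highest point at 0.68, and the lowest, in the DYRK partner list, lay at -0.67.

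The genes next to Hipk2 on chromosome 6 had smaller differences, in groups that overlapped. The tested protein-coding neighbours Luc7l2, Klrg2 and Clec2l on one side differed by -0.03 (SE 0.049), -0.02 (SE 0.44) and -0.23 (SE 0.31). Tbxas1, whose 5′ end overlaps the Hipk2 locus on the other strand, differed by -0.02 (SE 0.27), and Parp12 and Kdm7a beyond it by 0.01 (SE 0.16) and 0.04 (SE 0.14). The SE was wide for the weakly expressed Klrg2, Clec2l and Tbxas1.

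The pattern of Hipk2 over the 6 libraries was most like that of Usp24 (r = 0.9982), Med17 (0.9942), Dennd5a (0.9921), Ate1 (0.9890) and Birc6 (0.9860), by Pearson correlation of log2 CPM. Most opposite were Ppa2 (-0.9964), Rhpn1 (-0.9951) and Kdelr1 (-0.9949). These are descriptions from 6 points that share libraries and genotype. Of 12995 genes compared, 198 had an r of 0.9 or more and 275 an r of -0.9 or less. Mean TPM of Usp24, Med17, Dennd5a and Ate1 was higher in heterozygous cultures, as for Hipk2. That of Birc6 was lower, at 50.6 TPM in wild-type and 45.5 TPM in heterozygous cultures, so its likeness to Hipk2 holds for CPM. Within the family the correlation with Hipk2 was 0.83 for Dyrk1a, 0.79 for Hipk3, 0.74 for Hipk1, 0.61 for Dyrk2 and 0.38 for Dyrk3. It was -0.80 for Dyrk1b and -0.42 for Hipk4.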

How the data were processed

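Messenger RNA was sequenced in 3 wild-type and 3 Lztr1 heterozygous MEF cultures, grouped by the genotype in each title. The authors deposited 1 RSEM table per library, per the file headers. The submitters' processing notes name RSEM 1.3.1, DESeq2 and mm10, and the aligner, annotation release and strand setting were not stated. Expected counts, as deposited, estimate the reads of each gene, and 7.53% to 8.80% per library were not whole (tolerance 0.001). The deposited TPM values are scaled for length and library. FPKM values were also deposited but enter no result. Gene lengths, per the file headers in bases, are averages over transcripts weighted by abundance.

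The members and gene lists were chosen with earlier results of these data known. Identifiers were matched to GENCODE M21 by Ensembl number, which named 51633 of 51826 genes, and Cilk1 was matched as Ick. Expected counts were rounded, filtered with filterByExpr (14652 genes), scaled with TMM and compared with the quasi-likelihood test of edgeR 4.0.16 in R 4.3.3 at a Benjamini-Hochberg adjusted p under 0.05. SE and 95% intervals come from that fit. All members, up to 4 genes per list by smallest unadjusted p, 3 neighbours on each side of Hipk2, and the 5 most and 3 least correlated genes are named. Predicted genes, pseudogenes and sex-chromosome genes are left out of the last. A gene of the DYRK partner list that this rule names is not reported here. Ubn2, 4932442E05Rik and Gm15886 were named after values were seen. Correlations use log2 CPM with a prior count of 2. Alternatives were DESeq2 1.42.0, limma 3.58.1 on log2 TPM (pseudocount 1 or 0.1), other scaling and filters, length offsets, added terms and leaving out each culture. The steps were tested on simulated data.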

Additional observations from a re-analysis of the deposited data

How the results depend on the processing

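All 8 tested members and Lztr1 kept their direction under 17 alternatives each. Hipk2 ran from 0.51 to 0.71 on the log2 scale, Dyrk1b from -0.48 to -0.30, Hipk3 from 0.10 to 0.16, and Dyrk3 from 0.09 to 0.56. The count of members called between genotypes was 0, and 1 (Hipk2) without a low-count filter, with DESeq2 and without wild-type culture 16. It ran from 0 to 1 when 1 culture was left out. Over all genes 1 was called, against 32 without the filter, 112 with DESeq2, and 0 with limma on log2 TPM at either pseudocount, with limma on all genes above 0 TPM or with length offsets. When 1 culture was left out, the count ran from 0 to 896, the latter without wild-type culture 16, and was 0 without any other. The cause was not tested. The adjusted p of Hipk2 ran from 1.22e-07 with DESeq2 to 0.773 by edgeR without wild-type culture 10. By edgeR it was 0.00752 without wild-type culture 16. Hipk2 was chosen on this contrast, so its calls and adjusted p describe the processing alone and support nothing. No member was called between runs under any of the 9 alternatives. No paired analysis was possible because the genotypes share no culture number. Counts of 18 to 40 for Hipk4 and 63 to 160 for Dyrk3 limit what their differences can show.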
